A study of Mus musculus with 24 samples.

Results

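The mouse epididymis was compared at 2 embryonic ages, E18.5 against E16.5, with 2 arrays at each age out of 24 arrays in the series. They are the arrays labelled as epididymis at these ages. All came from male CD1 mice and measured total RNA on Affymetrix arrays, which read a gene through 1 or more sets of short probes (probe sets). The other 20 arrays were the epididymis at E14.5 and on postnatal day 1 (P1), and the efferent duct and vas deferens at all 4 ages, again with 2 arrays a group. No allele, transgene or treatment is named for any group. The labels do not say whether the arrays of a group came from separate animals, litters or pools. The p-values therefore reflect no more than how far the arrays of a group lie apart, pooled over the 12 groups, which may be technical. Each deposited value is a ratio to the median of that probe set over the 24 arrays. A value is given below as its log2, so 0 is the median array and 1 is a doubling. Such values hold no level, so genes were not ranked by abundance and no marker could be called absent.

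The epididymis develops from the upper stretch of the Wolffian duct, the efferent ducts from mesonephric tubules and the vas deferens from the duct below the epididymis. Fetal testicular androgens stabilise the duct, and receptors in the surrounding mesenchyme pass signals to the epithelium. In late gestation the epididymal tube elongates and coils while mesenchymal cells around it become smooth muscle and loose connective tissue. The secretory functions for which the adult organ is known, such as release of defensins and lipocalins into the lumen, appear largely after birth.

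The label of the arrays was read against genes that mark position along the duct. Hoxc10, a posterior HOX gene, lay at 1.51 and 1.59 in the epididymis at E16.5 and at 1.50 and 1.55 at E18.5, against -2.66 to -2.27 in the efferent duct at the same ages. In the vas deferens it was lower than in the epididymis, at 0.35 and 0.51 at E16.5 and at -0.51 and -0.46 at E18.5. Hoxd13, which marks the most posterior stretch, lay at -0.38 to 0.04 in the epididymis and at 3.64 to 4.80 in the vas deferens. The epididymal arrays did not overlap with those of the efferent duct for Hoxc10 or with those of the vas deferens for Hoxd13. Cldn2 lay at -0.62 to 0.27 in the epididymis and at 3.47 to 4.58 in the efferent duct. Lcn8, a lipocalin of the adult epididymis, overlapped between all the segments. On the 4 arrays compared, the 5' minus 3' difference of the Gapdh control probe sets was at most 0.09. It depends on RNA integrity and labelling. As each value is a ratio to a median over the arrays, a difference near 0 means like the median array and does not show intact RNA. The replicates correlated across genes at 0.829 (E16.5) and 0.715 (E18.5). Other controls differed between the ages without overlap. The hybridisation controls lay at -0.24 and -0.15 at E16.5 and at -0.01 and 0.02 at E18.5. The 5' minus 3' difference of the spiked control RNAs lay at 0.46 and 0.41 and then at 0.21 and 0.35. What part such differences between arrays had in the changes below was not tested. Other groups that share the estimate of spread stood apart. The Gapdh difference was -2.94 to -2.68 on the late vas deferens arrays, and the hybridisation controls of the early efferent duct lay at -1.31 to -0.40. The E14.5 epididymal arrays correlated at 0.407, the second of them with a Gapdh difference of -0.54.

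Between E16.5 and E18.5 the epididymis gained transcripts of some extracellular matrix, basement membrane, contractile smooth muscle and epithelial junction genes, and of single secreted proteins such as Chrdl1 and Defb29. It lost transcripts of some fetal red blood cell genes and of Crabp1, Hmga2 and Amhr2. Of 18193 genes, 1485 (8.16%) changed at an adjusted p under 0.05, from limma's moderated test with Benjamini-Hochberg adjustment over all genes, which is the source of every adjusted p below. Of these, 748 (4.11%) were higher and 737 (4.05%) lower at E18.5. The larger changes were mostly increases, with 183 genes at least 2-fold higher and 59 at least 2-fold lower. The 2 epididymal arrays at E14.5 differed by over 1 on the log2 scale for 40 of the 183 (21.9%) and 3 of the 59 (5.08%). For all genes that share was 3.84%, and what part such unstable probe sets had in the excess of increases was not tested. The median change of all genes was -0.01. The arrays of both ages did not overlap for any of the 1485 called genes, a property shared by 61.6% of all genes. Leaving out 1 of the 4 arrays left 488 (without E16.5 replicate 1), 279 (E16.5 replicate 2), 446 (E18.5 replicate 1) or 413 (E18.5 replicate 2) calls, and 150 of the 748 and 92 of the 737 were called in all 4 of these fits. Leaving out the late vas deferens and early efferent duct arrays, which alters only the shared spread, gave 2245 calls.

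A gene was represented by 1 of its probe sets, that with the largest variance over the 24 arrays. Among the called genes with other probe sets, 935 in all, the median of the others had the same sign in 709 and at least 50% of the size in 229. For called changes of at least 2-fold these were 155 and 38 of 180. The size of a change is therefore that of 1 probe set, and the median change of the others is given beside each called gene named below for which it was of the opposite sign or under 50% of the size.

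**Figure D1:**
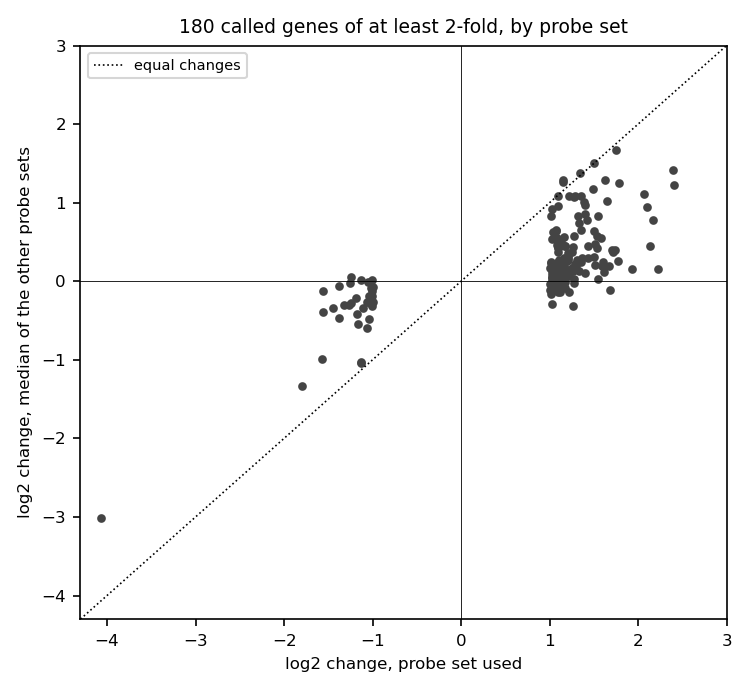
The plot sets the log2 change (E18.5 minus E16.5) of the probe set used, on the x axis, against the median log2 change of the gene's other probe sets, on the y axis, for the 180 called genes of at least 2-fold that have others. Most points lie nearer to 0 than the dotted line of equal changes, and 38 of the 180 have others with the same sign and at least 50% of the size.

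Genes of several secreted proteins were among the largest increases. Chrdl1, which encodes a secreted antagonist of bone morphogenetic proteins, lay at -0.08 and 0.03 at E16.5 and at 2.45 and 2.31 at E18.5. It rose by 2.41 ± 0.21 (SE, n = 2 arrays at each age), a 5.30-fold difference, with an adjusted p of 3.02e-06. This SE, like all those below, rests on the gene's spread between replicates pooled over the 12 groups and moderated by limma. It is not the scatter of the 4 arrays compared. The arrays of Chrdl1 at both ages were far apart compared with the gap between replicates, and 3 other probe sets had a median change of 1.23.

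Cp, the copper-carrying ferroxidase ceruloplasmin, went from -0.27 and -0.13 to 2.35 and 2.05, a change of 2.40 ± 0.21 (adjusted p 3.02e-06). Defb29, a beta-defensin known from the epididymis, went from -0.31 and -0.36 to 2.11 and 1.97, a change of 2.37 ± 0.18 (adjusted p 2.14e-06). Neither gene's arrays overlapped between the ages. Pzp, a protease inhibitor of the alpha-2-macroglobulin family, rose from -0.34 and -0.56 to 1.47 and 1.83, by 2.10 ± 0.20 (adjusted p 7.66e-06). Socs2, a feedback inhibitor of cytokine and growth hormone signalling, rose from -0.61 and -0.93 to 1.24 and 1.34, by 2.06 ± 0.23 (adjusted p 4.99e-05). All 5 of these genes kept their call when any 1 of the 4 arrays was left out.

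The oxidising enzymes Maob, Aldh1a1 and Fmo2 formed a further group among the largest increases. Maob, a monoamine oxidase of the mitochondrial outer membrane, stood at -0.42 and -0.41 at E16.5 and at 1.42 and 1.58 at E18.5, a change of 1.92 ± 0.15 (adjusted p 2.14e-06). Aldh1a1, a retinaldehyde dehydrogenase, stood at -0.90 and -1.26 and then at 0.69 and 0.80, a change of 1.82 ± 0.26 (adjusted p 0.000359). Fmo2, a flavin-containing monooxygenase, stood at -0.32 and -0.56 and then at 1.33 and 1.37, a change of 1.79 ± 0.16 (adjusted p 3.02e-06). The E14.5 arrays were lower still for all 3 genes, with Aldh1a1 at -4.32 and -4.22 and Maob at -2.61 and -2.96. Nt5e, the ecto-5'-nucleotidase that makes adenosine outside the cell, rose by 2.22 ± 0.18 (adjusted p 2.28e-06), from -2.10 and -1.59 to 0.35 and 0.42, while 2 other probe sets of it had a median change of 0.15. These 4 genes too kept their call in every leave-one-out fit.

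The other 6 of the 15 largest increases lost their call in 3 or 4 of the 4 leave-one-out fits, while the change kept its direction in every one of them. Col14a1, a fibril-associated collagen, was at -0.91 and -0.93 at E16.5 and at 0.83 and 1.66 at E18.5 (2.17 ± 0.47, adjusted p 0.00871), and Aspn, the small proteoglycan asporin, was at -0.71 and -0.91 and then at 0.89 and 1.00 (1.75 ± 0.38, adjusted p 0.00836). Hdlbp changed by 2.14 ± 0.49, Nrk by 2.09 ± 0.49, Jak1 by 1.93 ± 0.46 and Nrip1 by 1.77 ± 0.44, with adjusted p-values of 0.0127 to 0.0195. Their SEs were larger than those of the genes above, and the 2 epididymal arrays at E14.5 differed widely for each of them, as at 0.79 and -1.08 for Hdlbp and 0.75 and -1.43 for Jak1. Without 1 array the call of Hdlbp (change 1.96 to 2.31), Nrk (1.98 to 2.21) and Nrip1 (1.71 to 1.83) was lost whichever of the 4 was left out, with adjusted p-values up to 0.133. Col14a1 (1.75 to 2.58) and Jak1 (1.66 to 2.21) lost it without either E16.5 array or without E18.5 replicate 2 (adjusted p up to 0.15). Aspn (1.66 to 1.85) lost it without E16.5 replicate 2 or either E18.5 array (adjusted p up to 0.097). Other probe sets had a median change of 0.44 for Hdlbp, 0.95 for Nrk, 0.16 for Jak1, 0.26 for Nrip1 and 0.78 for Col14a1, but 1.67 for Aspn.

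**Figure D2:**
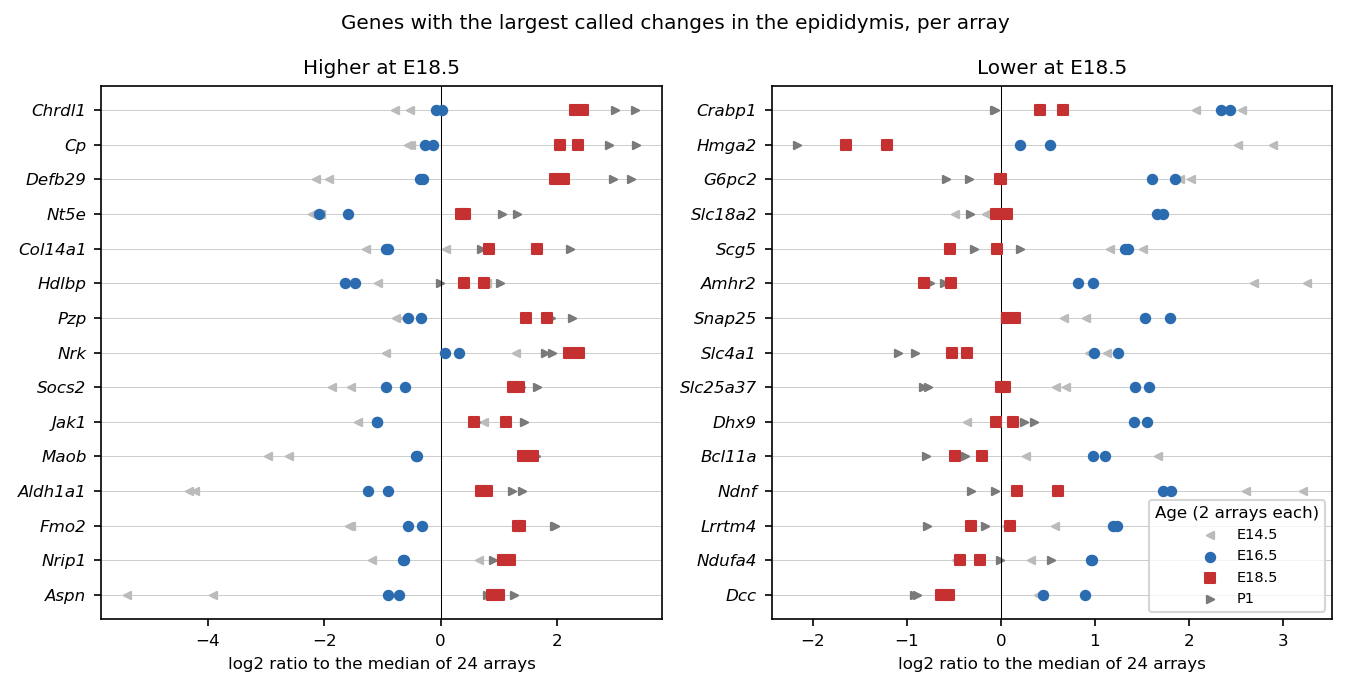
Each row is a gene and each point an array of the epididymis, placed by its log2 ratio to the median of the 24 arrays, with 15 genes higher at E18.5 in the left panel and 15 lower in the right. Red squares (E18.5) and blue circles (E16.5) are separate in every row, as for Chrdl1 at 2.31 and 2.45 against -0.08 and 0.03, and grey triangles give E14.5 and P1.

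Crabp1, Hmga2 and Amhr2 were among the largest decreases. Crabp1, a cellular retinoic acid binding protein, lay at 2.34 and 2.44 at E16.5 and at 0.42 and 0.66 at E18.5, a fall of 1.85 on the log2 scale (SE 0.15, adjusted p 2.14e-06). Hmga2, an architectural chromatin protein of fetal growth, lay at 0.21 and 0.52 and then at -1.65 and -1.21 (-1.80 ± 0.26, adjusted p 0.000561), after 2.90 and 2.52 at E14.5. Amhr2, the receptor through which anti-Müllerian hormone regresses the Müllerian duct in males, lay at 0.82 and 0.98 and then at -0.53 and -0.81 (-1.57 ± 0.23, adjusted p 0.000659). Both genes were already falling from E14.5, where Amhr2 stood at 2.69 and 3.25, and the other probe sets of each fell as well, with medians of -1.33 for Hmga2 and -0.99 for Amhr2.

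Slc18a2, Scg5 and Snap25 were among the other large decreases. Slc18a2, the vesicular monoamine transporter, dropped from 1.66 and 1.73 to -0.05 and 0.06 (-1.69 ± 0.23, adjusted p 0.000263). Scg5, a secretory granule protein, dropped from 1.35 and 1.32 to -0.54 and -0.04 (-1.62 ± 0.22, adjusted p 0.000262). Snap25, a protein of synaptic vesicle fusion, dropped from 1.54 and 1.80 to 0.06 and 0.15 (-1.56 ± 0.15, adjusted p 1.05e-05), with -0.13 for its 1 other probe set. Slc18a2 did not fall throughout development, since its E14.5 arrays lay at -0.16 and -0.49, so that the E16.5 arrays were the highest of the 8. Dcc, a netrin receptor, changed by -1.27 ± 0.20 (adjusted p 0.000922; -0.30 for its 2 other probe sets), and Ndnf, a secreted neurotrophic factor, by -1.38 ± 0.19 (adjusted p 0.000333), with -0.06 for its 1 other probe set.

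Of the remaining decreases, G6pc2, a glucose-6-phosphatase isoform, went from 1.60 and 1.85 to near the median array (-1.73 ± 0.15, adjusted p 3.02e-06). The red cell anion exchanger Slc4a1 (-1.56 ± 0.27, adjusted p 0.00178; -0.39 for its 2 other probe sets) and the mitochondrial iron importer Slc25a37 (-1.48 ± 0.16, adjusted p 2.84e-05) fell together. Dhx9, an RNA helicase, fell by 1.44 (SE 0.18), with -0.34 for its 2 others, and Ndufa4, a mitochondrial respiratory chain subunit, by 1.30 (SE 0.23), and the E14.5 arrays of both lay on either side of the median. The transcription factor Bcl11a (-1.38 ± 0.33, adjusted p 0.0155) and the synaptic adhesion protein Lrrtm4 (-1.32 ± 0.33, adjusted p 0.0196) lost their call whichever of the 4 arrays was left out, with adjusted p-values up to 0.135 and 0.18, and their other probe sets gave -0.47 and -0.30. The other 13 of the 15 largest decreases were called in every leave-one-out fit.

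Connective tissue genes had the highest share of increases among the process lists. Of 29 measured genes of the interstitial matrix, 12 rose (41.4%, against 4.11% of all genes) and 0 fell, with a median change of 0.45 against -0.01 over all genes. Mfap5, a microfibril protein, lay at 0.14 and 0.08 at E16.5 and at 1.71 and 1.77 at E18.5 (1.63 ± 0.16, adjusted p 9.43e-06). Thbs2, a matricellular thrombospondin, lay at -0.64 and -0.70 and then at 0.68 and 0.81 (1.42 ± 0.13, adjusted p 6.06e-06). Fmod, the collagen-binding proteoglycan fibromodulin, lay at -0.93 and -0.81 and then at 0.53 and 0.38 (1.33 ± 0.19, adjusted p 0.000364). The arrays of each gene were close together within an age, and the other probe sets of all 3 rose too, with medians of 1.29, 0.77 and 0.74.

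The main fibrillar collagens moved less. Col1a1 changed by 0.44 ± 0.23 (adjusted p 0.306) and Col3a1 by 0.11 ± 0.12 (adjusted p 0.732), while Col5a1, Col5a2 and Col6a3 rose by 0.37, 0.51 and 0.45. Efemp1, Fbn2, Postn, Bgn and Sparc made up the rest of the increases, with Col14a1 above (-0.08 for the 1 other probe set of Fbn2). With 1 array left out, 6 or 7 of these 12 genes were still called, and 5 were in all 4 such fits. Of 20 matrix remodelling genes, 2 rose (10%, against 4.11% of all genes) and 1 fell (5%, against 4.05%), with a median of 0.08. Mmp14, a membrane-bound collagenase, rose by 1.50 ± 0.20 (adjusted p 0.000196; 0.30 for its other probe sets). Mmp23 rose by 0.61 ± 0.15 and Mmp11 fell by 0.73 (SE 0.15). Mmp23 lost its call without E16.5 replicate 1 or either E18.5 array, and Mmp11 without either E16.5 array or E18.5 replicate 2, with adjusted p-values up to 0.239 and 0.086.

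Basement membrane genes also rose, 7 of 24 (29.2%, against 4.11% of all genes) with 0 lower and a median of 0.30. Col4a4, a type IV collagen chain, lay at -1.65 on both E16.5 arrays and at 0.07 and -0.07 at E18.5 (1.65 ± 0.18, adjusted p 3.61e-05), and 2 other probe sets had a median of 1.01. Nid1, which links laminin to collagen IV, rose by 1.67 ± 0.29 (adjusted p 0.00182), and Itga6, a laminin receptor subunit, by 1.00 ± 0.18 (adjusted p 0.00226). For both of these the other probe sets were near 0, at 0.19 and -0.12. Lama4, a laminin chain of vessels and muscle, rose by 1.61 ± 0.36 (adjusted p 0.0105) but lost its call without either E16.5 array or E18.5 replicate 2 (adjusted p up to 0.126), and its 1 other probe set gave 0.12. Lamb1 (0.29 for its others), Lama2 and Col4a1 made up the rest. Of the 7 genes, 3 to 6 were still called when 1 array was left out, 3 of them in all 4 such fits.

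Contractile genes of smooth muscle rose, 6 of 24 (25%, against 4.11% of all genes) with 0 lower and a median of 0.38. Myh11, the smooth muscle myosin heavy chain, lay at 1.18 and 1.04 at E16.5 and at 2.71 and 2.59 at E18.5 (1.54 ± 0.16, adjusted p 2.91e-05), although its 1 other probe set changed by 0.02. Actg2, the enteric smooth muscle actin, went from 0.28 and 0.31 to 1.91 and 1.74 (1.53 ± 0.28, adjusted p 0.00293). Cnn1, calponin, went from 0.51 and 0.53 to 1.71 and 1.58 (1.12 ± 0.17, adjusted p 0.000833). All 3 were below the median array at E14.5 and higher on P1 than at E18.5, with Myh11 at 3.01 and 3.27 on P1.

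The actin that marks early smooth muscle moved less, as Acta2 changed by 0.30 ± 0.10 (adjusted p 0.084), after its larger step from -1.53 and -1.31 at E14.5 to 0.22 and 0.10 at E16.5. Tagln rose by 0.68, Csrp1 by 0.70 and Pdlim3 by 0.74 ± 0.18, the last without a call when any 1 array was left out (adjusted p up to 0.142). Of the 6 genes, 3 or 4 were still called in those fits, and 3 were in all 4. The arrays of both ages did not overlap, with E18.5 higher, for 20 of the 24 genes, against 28.8% of all genes. In whole segments of the duct, more smooth muscle cells and more RNA per cell cannot be told apart, which holds for every list here.

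Epithelial junction and keratin genes rose, 12 of 42 (28.6%, against 4.11% of all genes) with 0 lower and a median of 0.27. Cdh16, a kidney and duct cadherin, lay at -1.13 and -1.30 at E16.5 and at -0.21 and -0.22 at E18.5 (1.00 ± 0.13, adjusted p 0.000156). Klf5, an epithelial transcription factor, rose by 1.10 ± 0.20 (adjusted p 0.00341), Dsp, the desmosomal plaque protein desmoplakin, by 0.87 ± 0.22 (adjusted p 0.0203), and the tight junction protein Marveld3 by 0.78 ± 0.19 (adjusted p 0.0171). The remaining increases were Tjp3, Ehf, Cldn3, Esrp1, Grhl2, Krt7, Krt8 and Cldn10, at 0.40 to 0.75. The other probe sets gave 0.25 for Klf5, 0.18 for Marveld3 and 0.06 for Grhl2. General epithelial genes were not among them, with Epcam at 0.13 ± 0.11 (adjusted p 0.625) and Cldn7 at 0.03 ± 0.15 (adjusted p 0.956), while Cdh1 changed by 0.63 ± 0.26 (adjusted p 0.167). Of the 12 genes, 2 to 4 were still called with 1 array left out, and 2 were in all 4 such fits. Dsp and Marveld3 lost their call without any of the 4 arrays (adjusted p up to 0.156 and 0.158) and Klf5 without either second replicate (up to 0.063), whereas Cdh16 kept it.

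Of 30 measured genes typical of the adult epididymal epithelium, 3 rose (10%, against 4.11% of all genes) and 0 fell, with a median of 0.11. Their arrays did not overlap, with E18.5 higher, for 16 of the 30, against 28.8% of all genes, and with E18.5 lower for 6, against 32.8%. Defb29, described above, was the largest. Clu, the secreted chaperone clusterin, went from -0.31 and -0.49 to 0.85 and 0.92 (1.29 ± 0.15, adjusted p 5.74e-05), and its 3 other probe sets had a median of 1.09. Sult1e1, an estrogen sulfotransferase, went from 0.01 and 0.00 to 1.01 and 1.31 (1.15 ± 0.29, adjusted p 0.0196) and lost its call without any 1 of the 4 arrays (adjusted p up to 0.171). The lipocalins and cysteine-rich proteins of the adult lumen did not pass, among them Lcn5 at 0.24, Lcn8 at 0.04 and Crisp4 at 0.20. The glutathione peroxidase Gpx5, at -0.06, did not pass either.

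Among 33 ion and water transport genes 3 rose (9.09%, against 4.11%) and 1 fell (3.03%, against 4.05%), with a median of 0.05. Aqp1, a water channel, went from 0.00 and -0.04 to 0.65 and 0.95 (0.82 ± 0.13, adjusted p 0.00114). The Na-K-Cl cotransporter Slc12a2 changed by 0.90 ± 0.27 (adjusted p 0.04997, just under the threshold), with 0.07 for its other probe sets, and the pump regulator Fxyd3 by 0.55 ± 0.17 (adjusted p 0.0477). The carbonic anhydrase Car2 fell by 0.87 (SE 0.19, adjusted p 0.00926). Of these, Aqp1 kept its call in every leave-one-out fit, and the other 3 lost it in all 4, with adjusted p-values up to 0.302. None of 28 motile cilium genes was called, with a median of 0.03, and 14 of them had arrays that did not overlap between the ages, 7 in each direction, against 61.6% of all genes.

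**Figure D3:**
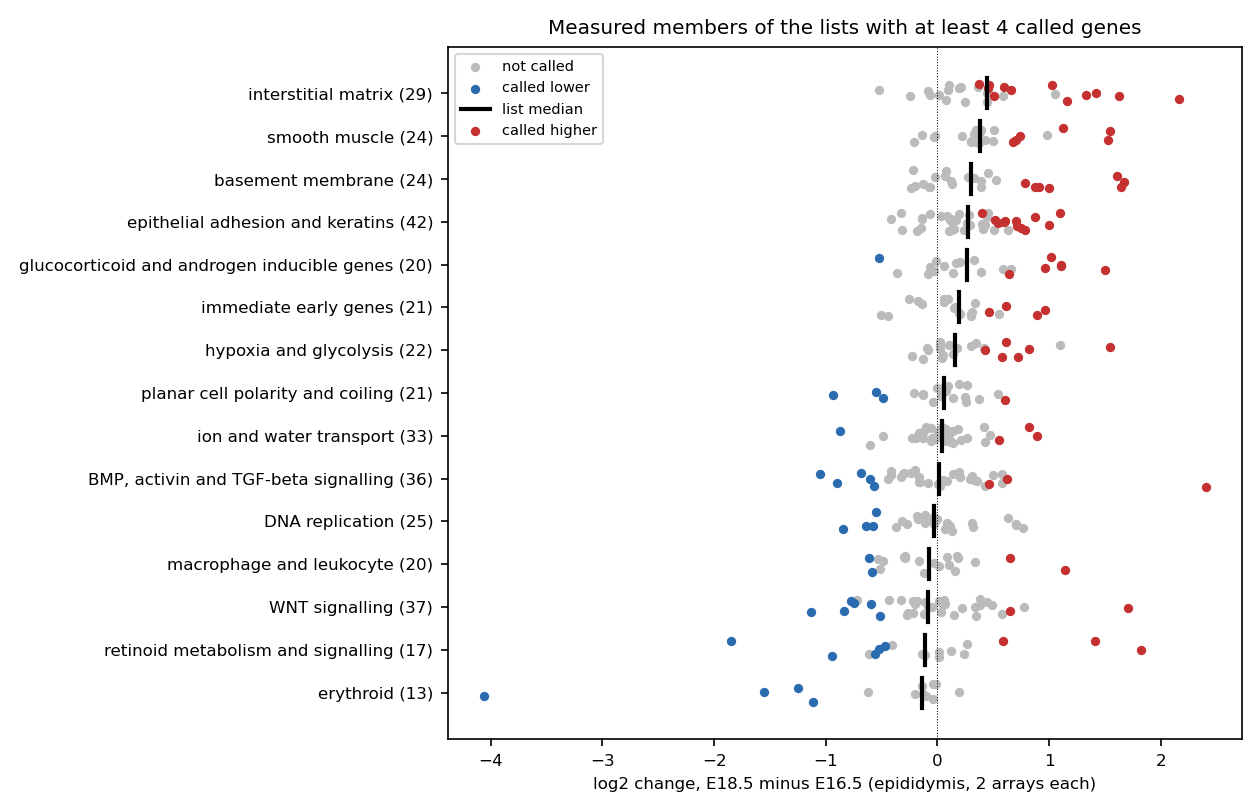
Each point is a measured gene of a list, placed by its log2 change (E18.5 minus E16.5), red where called higher, blue where called lower and grey otherwise. Black bars are list medians, and the number of measured genes follows each name, for the 15 lists with at least 4 called genes. The matrix list has its median at 0.45 and 12 red points, while Hbb-y at -4.06 is the farthest point of the erythroid list.

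Hedgehog signalling runs from ligands such as Shh, made by epithelium, to the receptor Ptch1 and the decoy Hhip in nearby mesenchyme, both of which are also induced by the pathway. Of 13 measured members, 3 rose (23.1%, against 4.11% of all genes) and 0 fell, and the 3 were this ligand, receptor and decoy. Shh lay at 0.49 and 0.43 at E16.5 and at 1.43 and 1.36 at E18.5 (0.94 ± 0.14, adjusted p 0.000833), and Hhip went from 0.23 and 0.08 to 1.72 and 1.60 (1.51 ± 0.25, adjusted p 0.00137). Their other probe sets moved alike, with 0.72 for Shh and a median of 1.50 for Hhip. Ptch1 rose by 0.50 ± 0.14 (adjusted p 0.0345) and lost its call without any 1 of the 4 arrays (adjusted p up to 0.227). The transcription factor Gli1, itself a target, changed by -0.28 and did not pass, and the list's median was 0.05.

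Retinoid genes moved in both directions, 3 higher (17.6%, against 4.11% of all genes) and 5 lower (29.4%, against 4.05%) of 17, with a median of -0.11. Those that rose were Aldh1a1 (above), Rarg and Rbp4. Rbp4, the retinol carrier of blood, went from -0.29 and -0.51 to 1.07 and 0.95 (1.41 ± 0.16, adjusted p 5.99e-05). The receptor Rarg rose by 0.59 ± 0.15 (adjusted p 0.0223; 0.17 for its 1 other probe set). Both cellular retinoic acid binding proteins fell, Crabp1 as above and Crabp2 from 0.98 and 1.08 to 0.01 and 0.15 (-0.95 ± 0.17, adjusted p 0.00204). The retinol uptake receptor Stra6 (-0.56 ± 0.13), the retinol dehydrogenase Rdh10 (-0.52 ± 0.14) and the other retinaldehyde dehydrogenase Aldh1a2 (-0.47) fell as well. Without 1 array Rarg was lost in all 4 fits (adjusted p up to 0.204). Stra6 was lost without E16.5 replicate 2 or E18.5 replicate 1 (up to 0.202), and Rdh10 without either E16.5 array or E18.5 replicate 1 (up to 0.317).

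Of 37 WNT genes 6 fell (16.2%, against 4.05% of all genes) and 2 rose (5.41%, against 4.11%), with a median of -0.08. Wnt4, a ligand also known from the Müllerian duct and kidney, lay at 1.11 and 1.10 at E16.5 and at -0.10 and 0.03 at E18.5 (-1.13 ± 0.17, adjusted p 0.000833), with -1.02 for its 1 other probe set and 2.02 and 2.21 at E14.5. Lef1, a nuclear effector of the pathway, fell by 0.84 (SE 0.17, adjusted p 0.00474; -0.27 for its 1 other probe set), and the secreted modulator Sfrp2 by 0.77 (SE 0.19, adjusted p 0.0173). Wnt11 and Lgr4 fell by 0.51 and 0.59, with 0.10 for the 1 other probe set of Lgr4. The ligand Wnt5a fell by 0.75 (SE 0.14, adjusted p 0.00362) in the probe set used, but its 3 others had a median of 0.37, and by the mean of its probe sets the change was 0.12. The receptor Fzd4 rose by 1.71 ± 0.23 (adjusted p 0.000218; 0.40 for the others) and the antagonist Dkk2 by 0.65 ± 0.18 (adjusted p 0.0355). The calls of Wnt4 and Fzd4 held in every leave-one-out fit. Those of Sfrp2 and Dkk2 were lost in all 4 (adjusted p up to 0.146 and 0.245), and those of Lef1 and Wnt5a without E16.5 replicate 2 or E18.5 replicate 1 (up to 0.077 and 0.067).

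Genes of bone morphogenetic protein signalling moved in both directions, 3 higher (8.33%, against 4.11% of all genes) and 5 lower (13.9%, against 4.05%) of 36 with activin and TGF-beta genes, with a median of 0.01. Beside Chrdl1, the antagonist Fstl3 (0.63 ± 0.14, adjusted p 0.00952) and the ligand Bmp6 (0.47 ± 0.14, adjusted p 0.0437) rose. The immediate targets Id3 and Id1 fell, Id3 from 0.75 and 0.84 to -0.16 and -0.04 (-0.90 ± 0.12, adjusted p 0.000243) and Id1 from 0.56 and 0.53 to -0.15 and -0.13 (-0.69 ± 0.13, adjusted p 0.00362). Both kept their call with any array left out. The extracellular regulator Bmper (-1.05 ± 0.25, adjusted p 0.0145), the ligand Bmp2 (-0.61 ± 0.16, adjusted p 0.0261) and Tgfb2 (-0.56; -0.21 for its others) were the other decreases. Bmper, Bmp2 and Bmp6 lost their call without any 1 of the 4 arrays (adjusted p up to 0.304), and Fstl3 without E16.5 replicate 2 or either E18.5 array (up to 0.148).

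Fewer genes of the other pathways were called, where 4.11% of all genes were called higher and 4.05% lower. The shares higher and lower were 11.1% and 5.56% for FGF and 0% and 5.56% for Notch. For planar cell polarity and coiling they were 4.76% and 14.3%. Of 18 FGF genes, the carrier Fgfbp1 (0.83 ± 0.22) and the receptor Fgfr1 (0.54 ± 0.15, -0.09 for its other probe sets) rose and the ligand Fgf9 fell (-0.57 ± 0.15, -0.03 for its 1 other). Of 18 Notch genes the ligand Jag1 fell, by 0.89 (SE 0.23, adjusted p 0.0238), its E16.5 arrays being far apart at 0.75 and 1.39 and its 2 other probe sets having a median change of -0.17. Of 21 genes of planar cell polarity and tube coiling Vangl1, a core polarity protein, rose from -0.09 and -0.13 to 0.55 and 0.45 (0.61 ± 0.11, adjusted p 0.00289). The genes of that list that fell were Daam1 (-0.94 ± 0.22), Ptk7 (-0.55 ± 0.13) and Fzd3 (-0.49 ± 0.12), but the other probe sets of Daam1 and Fzd3 had medians of 0.23 and 0.05. Vangl1 alone of these 8 genes was called in every leave-one-out fit. Fgfbp1, Fgfr1, Fgf9, Ptk7 and Fzd3 lost their call in all 4 (adjusted p up to 0.202), and Jag1 and Daam1 without E16.5 replicate 2 or either E18.5 array (up to 0.345 and 0.178).

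**Figure D4:**
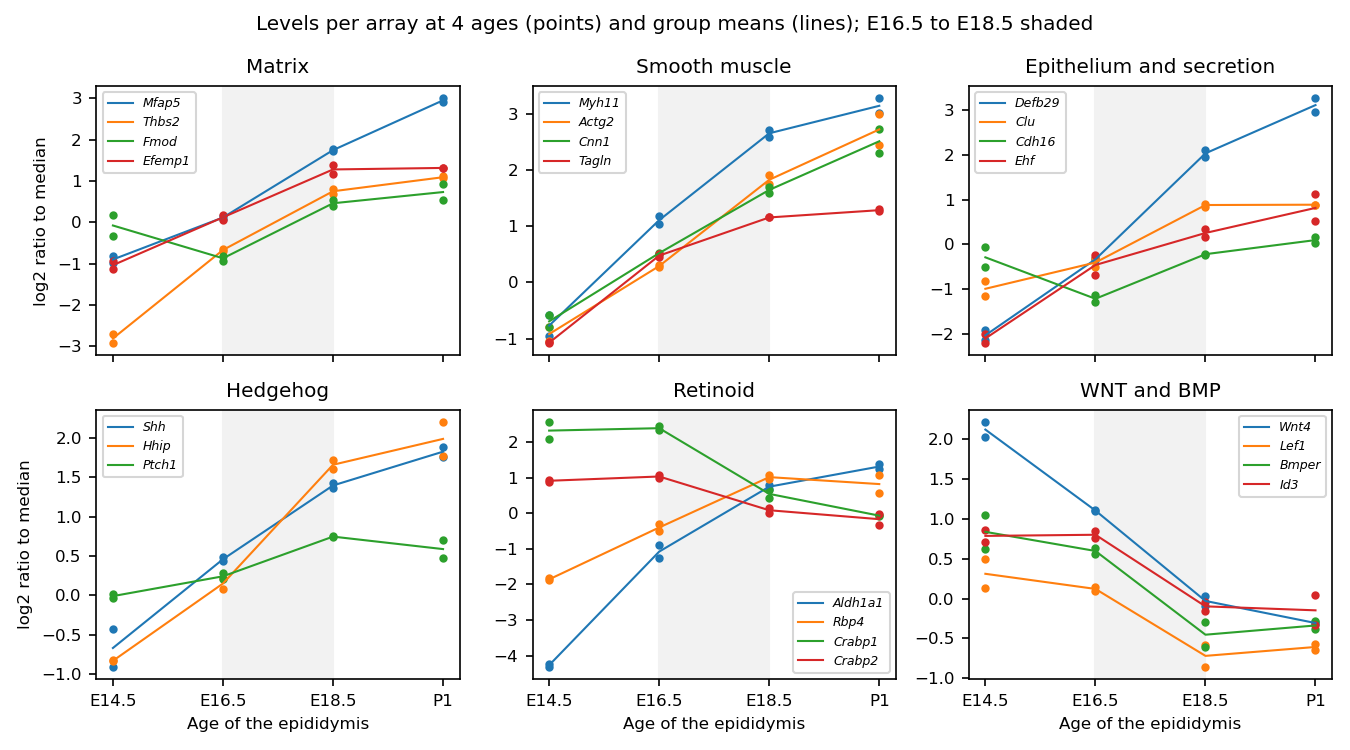
Points are the 2 epididymal arrays at each of 4 ages and lines join the group means, as log2 ratios to the median of the 24 arrays, for 6 groups of genes. The shaded interval is E16.5 to E18.5, over which Shh, Hhip and Ptch1 go up while Crabp1, Crabp2, Wnt4, Lef1, Bmper and Id3 go down, and several lines, such as that of Wnt4 from about 2.02 and 2.21 at E14.5, were already moving before it.

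Transcription factors that pattern the duct were read next. Among 14 posterior HOX genes, Hoxd10 alone was called (-0.70 ± 0.18, adjusted p 0.0223), with a list median of -0.12. That is 7.14% lower, against 4.05% of all genes. Of 18 Wolffian duct transcription factors 2 rose (11.1%, against 4.11% of all genes) and 1 fell (5.56%, against 4.05%). Lhx1, needed for duct formation, rose by 0.90 ± 0.23 (adjusted p 0.0203), Tcf21, a mesenchymal factor, rose by 0.77 ± 0.18 (adjusted p 0.0119; 0.05 for its 1 other probe set), and Wt1 fell from 0.79 and 0.76 to -0.21 and 0.03 (-0.87 ± 0.15, adjusted p 0.00153). Wt1 kept its call with any array left out. Hoxd10 and Lhx1 lost it in all 4 fits (adjusted p up to 0.194) and Tcf21 without E16.5 replicate 2 or either E18.5 array (up to 0.14). Of 11 steroid receptors and steroid enzymes, Hsd11b2, which inactivates glucocorticoids, fell from 0.59 and 0.57 to 0.00 and -0.06 (-0.61 ± 0.12, adjusted p 0.00582), a call lost without either E16.5 array or E18.5 replicate 2 (up to 0.063). Hsd11b2 was 9.09% of its list, against 4.05% of all genes lower. The glucocorticoid receptor Nr3c1 changed by 0.44 and the estrogen receptors Esr1 and Esr2 by -0.10 and -0.09, without a call. The androgen receptor was not analysed here.

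Of 20 genes known to be induced by glucocorticoids or androgens, 6 rose (30%, against 4.11% of all genes) and 1 fell (5%, against 4.05%). Their median was 0.26. Fkbp5, a co-chaperone of steroid receptors, lay at -0.17 and -0.25 at E16.5 and at 0.82 and 0.98 at E18.5 (1.11 ± 0.19, adjusted p 0.00154; 0.24 for its other probe sets) and kept its call with any array left out. Lcn2, a siderophore-binding lipocalin, went from 0.81 and 0.56 to 2.18 and 2.20 (1.50 ± 0.36, adjusted p 0.0159). Klf9, a transcription factor, rose by 1.10 ± 0.28 (adjusted p 0.0219; 0.28 for the others) and Fam107a, an actin-associated protein, by 1.02 ± 0.24 (adjusted p 0.0155; 0.23 for the others). Zbtb16 and Cebpd rose by 0.96 and 0.64 (0.12 and -0.06 for the others), and the clock gene Per1 fell by 0.53 (SE 0.15, adjusted p 0.0347). Lcn2, Klf9, Fam107a and Per1 lost their call whichever array was left out (adjusted p up to 0.245), and 2 or 3 of the 20 genes were called higher in those fits. Common glucocorticoid targets such as Tsc22d3 (0.20), Sgk1 (-0.03) and Dusp1 (0.06) did not pass.

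The receptors of these hormones bind an imperfect palindrome, which was searched as GNACANNNTGTNC (the same letters on both strands) in RefSeq promoter windows of 300 bases, 250 before and 50 after each start, of the mouse assembly GRCm38.p6. These letters stood in 156 of 32851 windows (0.47%) and for 61 of 14452 tested genes with a window (0.42%). Among the 20 genes of the list, 17 had a window and 4 had a match, namely Fam107a, Mt1, Sgk1 and Map3k6. The list holds known targets by choice, so this count is a description. The 250 bases before 1 start of each of 3 of them are shown because they set a called gene, Fam107a, beside Mt1 and Sgk1, whose changes did not pass. Capitals mark the match.
Fam107a, chr14:8309778-8310027, minus strand: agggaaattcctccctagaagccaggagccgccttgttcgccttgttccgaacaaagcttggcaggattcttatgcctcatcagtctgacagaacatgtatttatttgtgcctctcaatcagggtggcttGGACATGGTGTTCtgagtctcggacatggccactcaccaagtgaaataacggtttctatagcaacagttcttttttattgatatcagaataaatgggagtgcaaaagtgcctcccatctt
Mt1, chr8:94178839-94179088, plus strand: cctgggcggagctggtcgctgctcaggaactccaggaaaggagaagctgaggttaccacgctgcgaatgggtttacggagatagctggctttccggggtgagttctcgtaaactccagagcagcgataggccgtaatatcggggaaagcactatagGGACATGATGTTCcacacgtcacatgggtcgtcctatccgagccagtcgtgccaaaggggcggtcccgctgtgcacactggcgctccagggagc
Sgk1, chr10:21993640-21993889, plus strand: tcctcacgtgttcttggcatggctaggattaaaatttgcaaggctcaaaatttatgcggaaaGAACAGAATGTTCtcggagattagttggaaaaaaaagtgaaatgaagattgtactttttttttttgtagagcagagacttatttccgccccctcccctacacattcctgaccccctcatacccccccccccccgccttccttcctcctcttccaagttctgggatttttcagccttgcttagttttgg
Counted from the start shown, with -1 the base just before it, the match runs from -120 to -108 in Fam107a, from -94 to -82 in Mt1 and from -188 to -176 in Sgk1. Sgk1 had several other windows, none of them with a match. Fam107a had another window with the same match, at -118 to -106, and a further window without one. Fam107a rose by 1.02 ± 0.24, from -0.92 and -0.73 to 0.23 and 0.15. Mt1, metallothionein, went from -0.23 and -0.33 to 0.39 and 0.22 and missed the threshold (0.59 ± 0.18, adjusted p 0.0503). Sgk1, a kinase that regulates sodium transport, stayed at -0.35 and -0.50 against -0.55 and -0.37 (-0.03 ± 0.15, adjusted p 0.95). A match was thus found for 1 of 5 called members with a window and 3 of 12 members not called. The CArG box, the binding letters of serum response factor (on both strands), stood in 535 of the 32851 windows (1.63%). It was found for 2 of 20 smooth muscle genes with a window, Cnn2 and Myl9, neither of them called (0.39 ± 0.14 and 0.22 ± 0.10), and for 0 of the 3 called genes with a window, Cnn1, Csrp1 and Pdlim3.

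Proliferation genes were read as a mitotic and a replication list. Of 28 mitotic genes 2 rose (7.14%, against 4.11% of all genes) and 1 fell (3.57%, against 4.05%), with a median of 0.01, and Mki67, the standard marker of cycling cells, changed by 0.19 ± 0.13 (adjusted p 0.451). The kinesins Kif23 (1.20 ± 0.24, adjusted p 0.00564) and Cenpe (0.95 ± 0.23, adjusted p 0.015) rose in the probe set used, with 0.25 and -0.03 for their others, and the survivin gene Birc5 fell (-0.53 ± 0.11, adjusted p 0.00777). Of 25 DNA replication genes, 0 rose and 4 fell (16%, against 4.05%), namely Dut, Gins2, Gins1 and Tk1, at -0.84 to -0.55, with a list median of -0.03. The 1 other probe set of Dut gave -0.02 and that of Gins1 -0.25. Tk1, thymidine kinase, lay at 0.50 and 0.54 and then at -0.06 and 0.00. None of the 7 genes kept its call in all 4 leave-one-out fits. Kif23, Cenpe and Gins1 lost it without either E16.5 array or E18.5 replicate 2 (adjusted p up to 0.166), Birc5 without E16.5 replicate 2 or E18.5 replicate 1 (up to 0.118) and Dut without either first replicate (up to 0.068). Gins2 lost it in all 4 (up to 0.106), as did Tk1 (up to 0.09).

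Genes of hypoxia and glycolysis rose, 6 of 22 (27.3%, against 4.11% of all genes) with 0 lower and a median of 0.16. Ndrg1, a stress-responsive gene of differentiating cells, lay at 0.08 and -0.16 and then at 1.31 and 1.72 (1.55 ± 0.21, adjusted p 0.000262; 0.82 for its others). Aldoa and Pfkl, glycolytic enzymes, rose by 0.72 ± 0.14 and 0.82 ± 0.15 (0.09 for the others of Pfkl), and the glucose transporter Slc2a1 by 0.61 ± 0.14, but all 3 were below their E16.5 values on P1, as with Aldoa at -0.40 and -0.35 (E16.5), 0.33 and 0.37 (E18.5) and -0.52 and -0.50 (P1). The E18.5 arrays were thus the highest of the last 3 ages for these genes. The median of the list's values was 0.30 and 0.40 on the E18.5 arrays and -0.41 on both P1 arrays. Slc2a1 lost its call without either E16.5 array or E18.5 replicate 2 (adjusted p up to 0.114), and Ndrg1, Aldoa and Pfkl kept theirs.

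The remaining process lists held 4 calls or fewer, against 4.11% of all genes higher and 4.05% lower. Of 20 cholesterol synthesis genes 1 rose, Tm7sf2, a sterol reductase (0.92 ± 0.15, adjusted p 0.00126), with a median of 0.25. Of 23 antigen presentation and interferon genes 3 rose (13%), Gbp2, Ifitm1 and Irf1, by 0.45 to 0.82. Of 21 immediate early genes 4 rose (19%), Klf6, Klf2, Egr1 and Jund, by 0.46 to 0.96 (-0.18 for the 1 other probe set of Jund), while Fos (0.19) and Jun (-0.50) did not pass. Of 19 heat shock genes Hspa1b rose (0.67 ± 0.18) and Hspe1 fell (-0.48 ± 0.12, -0.09 for its 1 other), and of 19 imprinted growth genes Cdkn1c, a cell cycle inhibitor, rose (0.39 ± 0.11) and Zdbf2 fell (-0.61 ± 0.12). Apart from Tm7sf2, each of the other 11 genes lost its call in 2 or more of the leave-one-out fits.

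Some genes of fetal red blood cells fell. Of 13 measured erythroid genes, 0 rose and 4 fell (30.8%, against 4.05% of all genes), with a median of -0.14, and 4 were also called lower, with 0 higher, whichever 1 array was left out. Hbb-y, an embryonic beta-like globin, lay at 7.69 on both E14.5 arrays, at 2.80 and 1.74 at E16.5, at -1.92 and -1.67 at E18.5 and at -1.59 and -1.80 on P1 (-4.06 ± 0.38, adjusted p 6.06e-06, a 16.7-fold difference). Hba-x, an embryonic alpha-like globin, fell from 1.20 and 0.71 to -0.21 and -0.37 (-1.25 ± 0.20, adjusted p 0.000981). Globin genes share sequence, so a probe set can read more than 1 of them. Alas2, the first enzyme of heme synthesis in red cells, lay at 1.44 and 1.43 and then at 0.30 and 0.33 (-1.12 ± 0.16, adjusted p 0.000558). The adult globin Hba-a1 changed by -0.10 and the erythroid factors Gata1 and Klf1 by -0.01 and -0.14, without a call.

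Markers of other cell types were read in the same way, against 4.11% of all genes higher and 4.05% lower. Of 20 macrophage and leukocyte genes 2 rose (10%) and 2 fell (10%), with a median of -0.07. Lyve1, a hyaluronan receptor of lymphatic endothelium and tissue macrophages, went from -0.82 and -0.70 to 0.44 and 0.34 (1.15 ± 0.21, adjusted p 0.0028), and its 1 other probe set gave 1.26. Of 10 mast cell genes 2 rose (20%), the proteases Tpsab1 and Cma1, by 0.93 ± 0.23 and 0.83 ± 0.23, each without a call when any array was left out (adjusted p up to 0.242). Of 11 mesothelial genes Msln, mesothelin, rose from -0.42 and -0.55 to 0.82 and 0.92 (1.36 ± 0.19, adjusted p 0.000366), Cpe rose by 0.69 ± 0.13 (0.16 for its 1 other probe set; adjusted p up to 0.076 without either second replicate), and Wt1 fell as above. Of 18 endothelial genes Flt1 rose (0.61 ± 0.17) and Erg fell (-0.89 ± 0.26, 0.17 for its 1 other), both lost in all 4 leave-one-out fits (adjusted p up to 0.346). Of 14 neural and Schwann genes Ngfr rose (0.77 ± 0.16, 0.18 for its others, adjusted p up to 0.077 without either E16.5 array or E18.5 replicate 2) and Stmn2, a growth-associated protein of neurons, fell (-1.13 ± 0.24, adjusted p 0.00777; -1.04 for its 1 other probe set).

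Stmn2 lost its call without E16.5 replicate 2 or E18.5 replicate 1 (adjusted p up to 0.115), and the neurofilament genes Nefm and Nefl changed by -1.07 and -0.88 without a call. Of 14 Sertoli and Leydig cell genes Cyp11a1 rose (0.67 ± 0.18, adjusted p 0.0275; 0.10 for its others; lost in all 4 leave-one-out fits). Cyp11a1 was 7.14% of its list, against 4.11% of all genes higher. No gene of the germ cell, skeletal muscle, adipocyte or kidney and ureter lists was called, and their medians ran from -0.07 to 0.07. The median value of the mesothelial list was -0.04 and 0.06 on the E16.5 arrays and 0.08 and 0.25 on the E18.5 arrays. That of the erythroid list was 0.18 and 0.00 and then -0.09 and -0.14. What part these cells had in the changes of other genes was not tested.

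The E14.5 and P1 arrays, which do not enter the size of the change from E16.5 to E18.5, show where each change sat in a longer course. They do enter the pooled spread behind the calls and the choice of probe set, so the shares below are a description and not independent of the calls. Both P1 arrays lay above both E14.5 arrays for 481 of the 748 genes that rose (64.3%), against 22.5% of all genes. They lay below them for 60 of the 748 (8.02%), against 32.2%. Of the 737 genes that fell, P1 was below E14.5 for 365 (49.5%) and above for 128 (17.4%). Chrdl1 went on to 3.34 and 2.99 on P1, Defb29 to 2.97 and 3.27 and Mfap5 to 2.90 and 3.0. Thbs2 lay at 1.11 and 1.06 on P1, a smaller further step, and the P1 arrays of Maob, at 1.64 and 1.46, overlapped with those of E18.5. Among the genes that fell, Snap25, at 0.68 and 0.91 at E14.5, and Slc18a2 were highest at E16.5.

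The efferent duct and vas deferens of the same ages were measured on other arrays. In the efferent duct 7344 genes (40.4%) and in the vas deferens 6047 (33.2%) changed over this interval, far more than the 8.16% in the epididymis. Of the 748 genes that rose in the epididymis, 415 (55.5%) also rose in the efferent duct, where 24.7% of all genes did, and these are 9.22% of the 4500 genes that rose there. In the vas deferens 283 (37.8%) rose, against 15.9%, and these are 9.78% of the 2894. The genes that fell were split. In the vas deferens 422 of the 737 (57.3%) fell, against 17.3% of all genes, and these are 13.4% of the 3153 that fell there. In the efferent duct 46 (6.24%) fell, against 15.6%, and 215 (29.2%) rose, against 24.7%. The late vas deferens and early efferent duct arrays are those that stood apart in the control probe sets, and their part in these shares was not tested.

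Matrix and muscle genes illustrate the shared and the separate changes. Of the 29 interstitial matrix genes, 20 rose and 0 fell in the efferent duct, where 24.7% of all genes rose and 15.6% fell. In the vas deferens 13 rose and 5 fell, where 15.9% of all genes rose and 17.3% fell. Mfap5 rose by 3.57 in the efferent duct and changed by 0.04 in the vas deferens, beside 1.63 in the epididymis. Of the 24 smooth muscle genes, 11 rose and 0 fell in the efferent duct and 6 rose and 8 fell in the vas deferens, against the same shares. Shh, which rose by 0.94 in the epididymis, changed by -1.65 in the efferent duct and by 0.03 in the vas deferens, and Hhip, at 1.51, changed by -0.80 and 0.54.

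The test of the difference in change between segments called 4503 genes (24.8%) against the efferent duct, 1516 of them (8.33%) with the higher change in the epididymis and 2987 (16.4%) with the lower. Against the vas deferens it called 3955 (21.7%), 2321 (12.8%) higher and 1634 (8.98%) lower. A change above that of both other segments was called for 66 genes (0.363%) and one below both for 607 (3.34%). For 184 genes the change within the epididymis was called too.

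The neuropeptide Npy and the receptor gene Npy6r were among the 6 with the largest such excess. Npy lay at 0.03 and -0.05 at E16.5 and at 1.65 and 1.47 at E18.5 (1.57 ± 0.22, adjusted p 0.000354), against changes of -0.78 in the efferent duct and -0.37 in the vas deferens, so that its change differed by 2.35 and 1.93 (SE 0.31 for each, adjusted p 0.000191 and 0.000218). Npy6r lay at -0.21 and 0.03 and then at 1.48 and 1.35 (1.51 ± 0.12, adjusted p 2.14e-06), against -0.04 and 0.29, with 0.20 for its 1 other probe set. Both genes were higher again on P1, Npy at 2.28 and 2.41 and Npy6r at 2.47 and 2.46. Pzp and Chrdl1, whose values stand above, changed by 0.09 and 0.89 in the efferent duct and by 0.25 and 0.82 in the vas deferens. Hoxd12 differed because it changed by -0.94 and -1.82 in the other segments while it did not pass in the epididymis (0.27 ± 0.23, adjusted p 0.609). The cytoskeletal protein Add1 differed because it rose by 1.26 ± 0.23 (adjusted p 0.00322, 0.38 for its others) against 0.05 in each. The epididymal arrays of Add1 at E14.5 lay far apart, at 0.13 and -0.96.

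On the other side, Snap25 and Tmem178 fell in the epididymis with little change elsewhere. Snap25 changed by -0.13 in the efferent duct and -0.20 in the vas deferens, beside -1.56, and Tmem178 by 0.30 and 0.12, beside -1.16 ± 0.17 (adjusted p 0.000385), from 0.40 and 0.54 to -0.81 and -0.56. Flywch2 fell by 0.64 (SE 0.13, adjusted p 0.0065) and changed by 0.67 and 0.75 in the other segments. Heg1, Ap2b1 and Col12a1 did not pass in the epididymis (-0.13, -0.51 and 0.02) and changed by 0.97 to 1.44 in the others. Col12a1, a fibril-associated collagen, thus changed by 1.32 in the efferent duct and 1.44 in the vas deferens but lay at 0.31 and 0.05 and then at 0.14 and 0.25 in the epididymis.

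**Figure D5:**
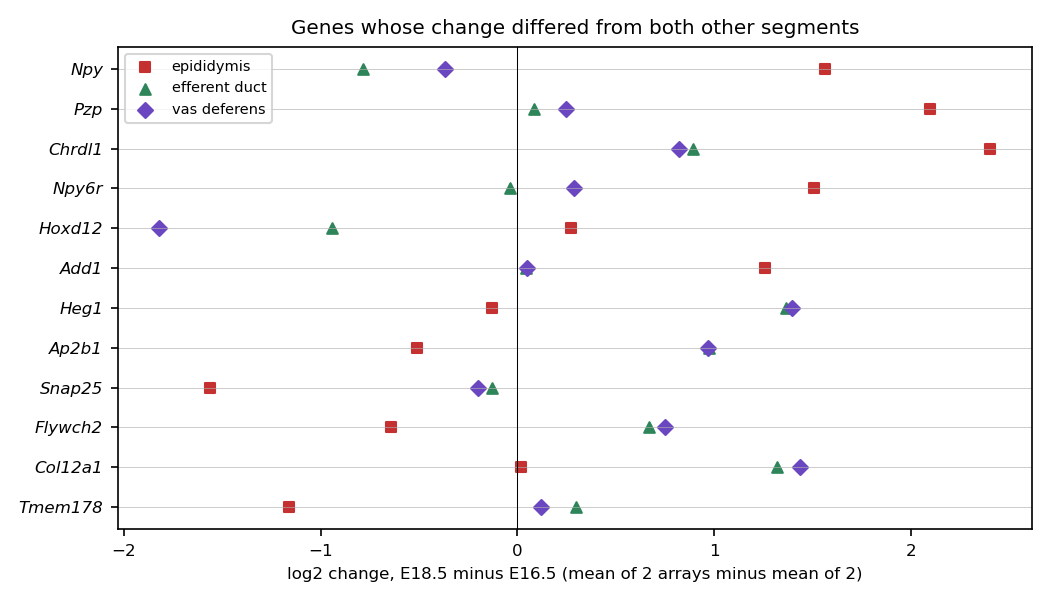
Each row is a gene whose change from E16.5 to E18.5 in the epididymis differed from that in both other segments, and each mark is the log2 change (mean of 2 arrays minus mean of 2) in 1 segment. Red squares (epididymis) lie to the right of both other marks for the top 6 genes, as for Npy at 1.57 against -0.78 and -0.37, and to the left for the lower 6.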

How the data were processed

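Per the labels, the RNA was a Trizol extract, and biotin was the label on the Affymetrix arrays. RMA gave the expression values, per the submitters' processing notes; which version, and with what settings, is not given in the sources used here. What the authors deposited is a ratio on a linear scale: the median over the 24 arrays was 1 within 1e-04 for 45081 of 45101 probe sets, and 4 values stood at a floor of 0.01. The log2 of the ratio was taken. No signal over background can be had from such values, so the number of arrays limits the precision, and no filter on low values was possible.

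Control probe sets (64) and those with several gene symbols (932) or none (9160) were left out, and 34945 with 1 symbol gave 18193 genes, each read by the probe set of largest variance. Limma 3.58.1 (R 4.3.3) fitted a mean to each of the 12 groups. Changes, and differences in change between segments, were tested with moderated contrasts (17.4 degrees of freedom), two-sided, with Benjamini-Hochberg adjustment and a threshold of 0.05. On simulated data the same steps recovered 88 of 100 genes changed by 1 on the log2 scale and 98 of 100 changed by 2, with 8 false calls. The simulated noise was independent and Gaussian, with 1 spread per gene for all 12 groups, and 200 genes were changed. In the data the groups differ in spread. The mean difference between replicates was 0.11 to 0.14 on the 4 arrays compared and 0.28 on the early efferent duct arrays. The simulation therefore does not give the recovery or the false calls of these data.

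The epididymal groups, gene lists and rules were chosen with earlier results of these data known. The genes named were the 15 with the largest called change each way, up to 4 called members of each list in each direction (any member of lists of at most 20), and the 6 largest differences from both other segments in each direction. A few further list members were named after their values were seen. Predicted genes and families with shared sequence were skipped except in a list. The replicate numbers were not taken as pairs, since the deviations of same-numbered arrays at E16.5 and E18.5 correlated at -0.116. No batch is named in the labels. Promoter sequences are from RefSeq (GRCm38.p6), with 1 or more windows for 14452 of the tested genes.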

Additional observations from a re-analysis of the deposited data

Results flagged for a closer look

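Over the same interval 4503 genes changed differently in the epididymis and in the efferent duct and 3955 in the epididymis and in the vas deferens, by limma's test of the difference itself (adjusted p under 0.05). The largest excess over both other segments was that of Npy, whose change was 2.35 above that of the efferent duct and 1.93 above that of the vas deferens on the log2 scale. It was followed by Pzp (2.01 and 1.86), Chrdl1 (1.51 and 1.58), Npy6r (1.55 and 1.22), Hoxd12 (1.21 and 2.09) and Add1 (1.21 and 1.21).

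The differences below both other segments were led by Heg1, at -1.49 against the efferent duct and -1.53 against the vas deferens. Ap2b1 differed by -1.49 and -1.48, Snap25 by -1.44 and -1.36, and Flywch2 by -1.31 and -1.39. For Col12a1 the differences were -1.30 and -1.42, and for Tmem178 they were -1.46 and -1.28. Relative to the median array, the early efferent duct arrays had low hybridisation controls and the late vas deferens arrays low 5' against 3' signal in their controls. Both sets of arrays enter these differences, and their part in them was not tested. With 2 arrays a group, no array could be tested against the others of its group.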

How the results depend on the processing

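The direction and the call of 131 genes were followed through 15 alternatives. They were the 15 largest called changes each way and up to 4 called members of each list in each direction. Other named genes were not followed, among them Npy, Npy6r, Add1, Tmem178 and Flywch2 and those under other observations. Of 1963 values, 1648 kept both, 313 kept the direction but missed the threshold (265 of them with 1 array left out) and 2 turned: Wnt5a to 0.12 by the mean of its probe sets and Jund to -0.18 with the probe set chosen without the 4 arrays. The 1485 calls became 4753 by quantile normalization, 4965 with array weights, 2245 without the late vas deferens and early efferent duct arrays, 242 at 2-fold or more, and 279 to 488 with 1 array left out; the cause was not tested for the first 2. Against the efferent duct, 4503 became 1280 at 2-fold or more and 2507 to 3044 with 1 array left out, and quantile normalization moved the share of higher calls from 33.7% to 43.2%. Against the vas deferens, 3955 became 2560 by quantile normalization, 2468 by the mean of probe sets, 6526 with array weights, 1646 at 2-fold or more and 2775 to 3048 with 1 array left out. At 2-fold or more the share of higher calls in the epididymis was 75.6%. The other counts stayed within 1.5 times.

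With the replicate number as a block (replicate block) the 3 counts were 1475, 4572 and 3975, and with crossed numbers, an alternative chosen after seeing the data, 1546, 4702 and 4110, so pairing changed none of them by over 1.5 times. A list median was counted as turned where it exceeded the spread between its replicate arrays and changed sign. Otherwise it was counted as moved where it shifted by at least that spread. Of 38 list medians, 25 moved and 1 turned under quantile normalization. A variance filter, which dropped the 40% of genes with least variance, moved 18 and turned 2, and the mean of probe sets moved 12 and turned 2. With 1 array left out, 12 to 19 moved and up to 2 turned. The medians that turned were near 0. That of steroid receptors and enzymes became 0.014 after dropping the 40% of genes with least variance and ran from -0.13 to 0.048 with 1 array left out. WNT became 0.032 and Notch 0.035 by the mean of probe sets. Planar cell polarity ran from -0.028 to 0.10 and ion transport from -0.0077 to 0.073 with 1 array left out. The medians of further lists also crossed 0 in those fits. They were Hedgehog (-0.17 to 0.10), BMP (-0.048 to 0.045), DNA replication (-0.081 to 0.006) and the mitotic list (-0.040 to 0.033). The others were neural and Schwann (-0.078 to 0.008), imprinted growth (-0.18 to 0.0007) and Sertoli and Leydig (-0.056 to 0.032). Motile cilium became -0.021 by quantile normalization and -0.0095 after the variance filter. Differences between segments cannot be fitted without the arrays of either segment. Without the arrays that stood apart and were not needed, an alternative chosen after seeing the data, the difference from the efferent duct gave 4359 calls (late vas deferens left out) and that from the vas deferens 4773 (early efferent duct left out).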

Other observations

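Genes outside the lists, picked here after their values were seen, rose at E18.5. They include a duct protein, a matrix protein and a globin of fibroblasts. Pkhd1, the fibrocystin of ductal epithelia, lay at -1.01 and -0.76 at E16.5 and at 0.65 and 0.76 at E18.5 (1.59 ± 0.15 SE, adjusted p 5.52e-06). Tnxb, the matrix protein tenascin-X, went from -0.70 and -0.42 to 1.15 and 0.82 (1.54 ± 0.22, adjusted p 0.000354). Cygb, cytoglobin, went from -0.35 and -0.32 to 1.19 and 1.06 (1.46 ± 0.16, adjusted p 3.61e-05). Cd44, the hyaluronan receptor, rose by 1.40 ± 0.14, with 0.97 for its other probe sets, and also by 2.20 in the efferent duct and 1.89 in the vas deferens. Fmo1, a second flavin-containing monooxygenase, rose from -0.77 and -1.17 to 0.58 and 0.29 (1.41 ± 0.18, adjusted p 0.000197).

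Some genes known from neurons, also picked after their values were seen, were among the decreases, although the neural and Schwann list as a whole had 1 of 14 genes higher, 1 lower and a median of -0.03. Astn1, a neuronal adhesion protein, went from 0.70 and 0.51 to -0.82 and -0.35 (-1.19 ± 0.16, adjusted p 0.000262), and Lsamp, another, from 0.94 and 1.05 to -0.12 and -0.02 (-1.06 ± 0.16, adjusted p 0.000878). The neuropeptide genes Tac2 and Pnoc fell by 1.17 (SE 0.22) and 1.16 (SE 0.22), while Npy rose. Pnoc was highest at E16.5, at 2.54 and 2.95, and lay at -0.01 and -0.24 on P1. General neuronal and Schwann cell genes did not pass, with Tubb3 at -0.13, Prph at -0.16 and Sox10 at 0.30.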
